A study of Mus musculus with 6 samples.

Results

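NF-κB is a family of dimeric transcription factors whose activity is set by inhibitor proteins, and the transcripts of its 5 subunits (Nfkb1, Nfkb2, Rela, Relb and Rel) and of 5 inhibitors and modulators (Nfkbia, Nfkbib, Nfkbie, Tnfaip3 and Bcl3) were followed in Lyplal1 knockout and wild-type tumour cells. The 10 genes were chosen by name from the 55487 genes of the count table, and all 10 passed the filter on low counts that left 13022 tested genes. The cells are 4T-1, a mouse mammary carcinoma line, given no treatment, with 3 libraries from wild-type cells and 3 from cells with a Lyplal1 knockout. The sample descriptions name the wild-type libraries 4T1_NC and all knockout libraries 4T1_sg2, without spelling out either name. The labels do not say whether the knockout cells are a clone or a pool, or whether libraries of a group came from separate cultures, so p-values measure only the spread between these libraries, which may be technical. The series title links Lyplal1 to the removal of palmitate from cGAS, a sensor of cytosolic DNA, and the comparison asks how the cells' transcripts differ without it.

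In resting cells, dimers of the subunits are held in the cytoplasm by the IκB proteins, which are encoded by Nfkbia, Nfkbib and Nfkbie. In the canonical pathway, cytokine or pathogen receptors activate the IκB kinase complex, IκB is degraded, and dimers such as p50 with RelA enter the nucleus. In the noncanonical pathway, the kinase NIK drives the processing of the Nfkb2 product p100 to p52, the partner of RelB. Several inhibitors are themselves targets of the factor and close a negative feedback loop. STING, the adaptor below cGAS, can signal to NF-κB as well as to the interferon regulatory factors.

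Total counts ran from 16731209 to 17108975 per library, and Pearson correlations of log2 CPM across genes were 0.994 to 0.997 within groups and 0.878 to 0.884 between them. Lyplal1 itself had 68 to 76 counts in wild type, against 48 to 58 in knockout, and its log2 fold change of -0.28 ± 0.15 (SE) was not called (adjusted p = 0.0886, edgeR's quasi-likelihood F test with Benjamini-Hochberg adjustment). The epithelial markers Epcam, Cdh1, Krt8, Krt18 and Krt19 were present in every library, and all 5 were lower in knockout, with a summed level of 3110 to 3197 CPM in wild type, against 1710 to 1730 CPM in knockout. Of 10 immune markers only Cd68 and Lyz2 were high enough to test, and both were higher in knockout. The summed level of the immune list was 8.41 to 8.76 CPM in wild type, against 443 to 500.2 CPM in knockout, nearly all of it Cd68. The defining immune genes Ncr1 and Flt3 had 0 counts in every library, Cd3e had 0 or 1, and Ptprc had 1 to 7. Of 6 endothelial and fibroblast markers only Pdgfra was tested, and the list summed to 63.9 to 66.5 CPM in wild type, against 168 to 179 CPM in knockout. Knockout replicate 3 stood apart in a few genes foreign to the line: Lyz2 had 28, 45 and 263 counts in knockout replicates 1 to 3, and the endothelial gene Cdh5 had 8, 10 and 34. A set of 10 interferon response genes was higher in knockout in all 10 cases, from a sum of 54.1 to 58.2 CPM in wild type to 5984 to 6295 CPM in knockout. Without knockout replicate 3 the call of Rela was lost and those of the other 9 members did not change, and the part of the marker and interferon differences in the results was not tested.

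Transcripts of 4 of the 5 subunits stood at nearly the same level in both groups, while Relb, all 3 classical IκB genes and Bcl3 were higher in knockout and Tnfaip3 was lower. By edgeR's quasi-likelihood test 6 of the 10 genes were called higher and 1 lower at an adjusted p under 0.05, and 3 were not called. Across all tested genes 82.3% were called, 41.3% as higher and 40.9% as lower in knockout, so 7 of 10 called members is no larger a share than that of genes at large. The median log2 fold change was 0.23 over the 10 members, 0.06 over the subunits and 0.996 over the inhibitors and modulators, beside -0.0012 over all tested genes. In CPM the groups did not overlap for 6 of the 10 genes, beside 83.1% of all tested genes. On log2(TPM + 1) the split over all genes was 4115 higher and 6591 lower, against 5382 and 5329 in the main test. In RNA from whole cultures, fewer cells of a kind and less RNA per cell cannot be told apart.

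**Figure D1:**
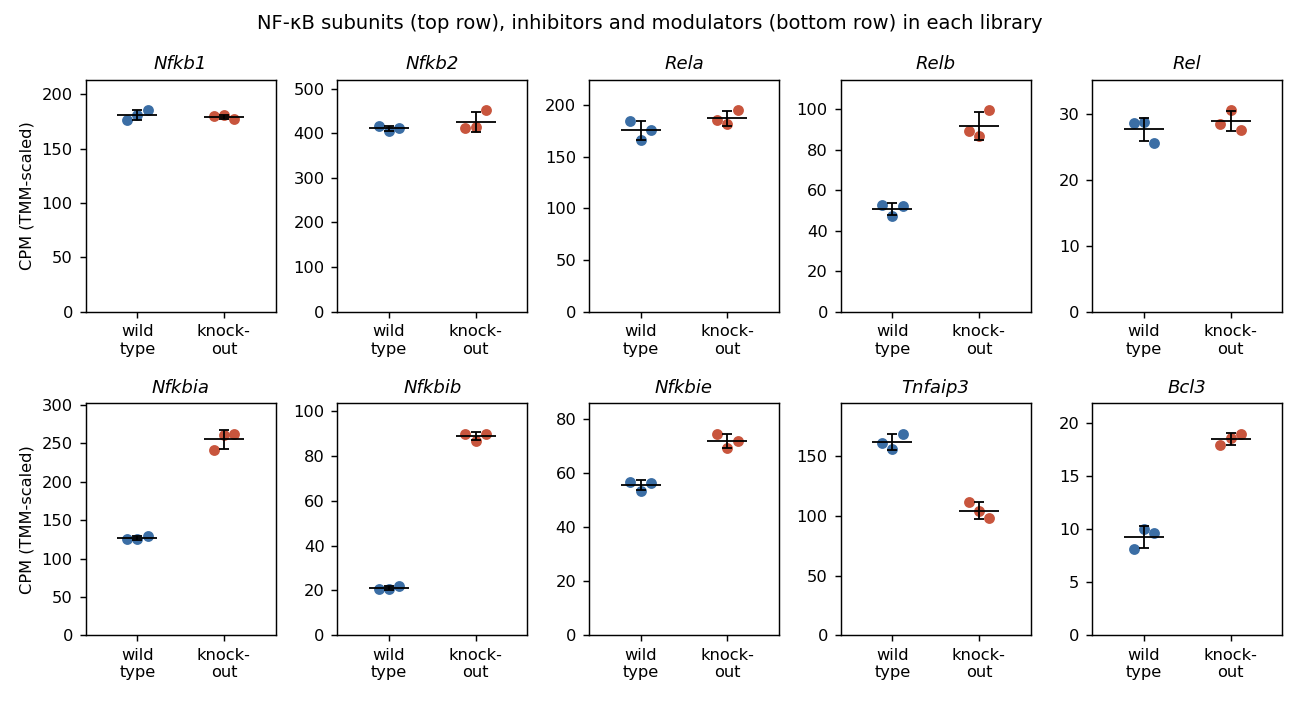
Level of each gene in CPM scaled with TMM factors (y axis, from 0, with its own range in each panel) in the 3 wild-type libraries (blue) and the 3 knockout libraries (red); black bars are mean ± SD. The groups overlap for Nfkb1, Nfkb2, Rela and Rel and do not overlap for the other 6 genes.

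Nfkb2 (chromosome 19, 46304320 to 46312385, GRCm38), which encodes the p100 precursor of p52, was the most abundant subunit transcript per length, at 382 ± 5.32 TPM in wild type (SD, n = 3). Its level was 416, 405 and 412 CPM in wild-type replicates 1 to 3 and 411, 414 and 452 CPM in knockout replicates 1 to 3. The high value was that of knockout replicate 3, the other knockout libraries lay within the wild-type range, and the groups overlapped. The log2 fold change of 0.05 ± 0.035 (SE) was not called (edgeR adjusted p = 0.19). Nfkb2 shares exon positions with the genes AC114539.1 and Psd on the opposite strand, which had 32 to 153 and 235 to 299 counts per library against 6575 to 7453 for Nfkb2, and the strand setting of the counting is not given in the sources used here.

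Rela (chromosome 19, 5637483 to 5648130) encodes RelA, also called p65, the main transactivating subunit of the canonical pathway. It stood at 184, 166 and 176 CPM in wild type, against 186, 181 and 195 CPM in knockout. The ranges overlapped, with wild-type replicate 1 above knockout replicate 2. The log2 fold change of 0.09 ± 0.04 (SE) passed the threshold (edgeR adjusted p = 0.0331), but the call was lost without wild-type replicate 2, wild-type replicate 3 or knockout replicate 3 (adjusted p = 0.295, 0.0687 and 0.0756) and with DESeq2 (adjusted p = 0.0862). With upper-quartile factors the sign turned, at -0.039 (edgeR adjusted p = 0.369), and on log2(TPM + 1) Rela was called lower at -0.11 (limma-trend adjusted p = 0.0277).

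Nfkb1 (chromosome 3, 135584655 to 135691547) encodes p105, the precursor of p50. It was at 176, 181 and 186 CPM in wild type, against 180, 181 and 177 CPM in knockout. All 3 knockout values lay inside the wild-type range, and the log2 fold change of -0.01 ± 0.035 (SE) was not called (edgeR adjusted p = 0.755). Rel (chromosome 11, 23736847 to 23770970), the gene of c-Rel, a subunit best known from lymphocytes, was the scarcest of the family per length. Its values were 28.7, 28.8 and 25.7 CPM in wild type, against 28.6, 30.6 and 27.6 CPM in knockout, which overlapped. Its log2 fold change was 0.06 ± 0.065 (SE) and was not called (edgeR adjusted p = 0.375).

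Relb (chromosome 7, 19606217 to 19629438) had the largest change among the subunits, of which Rela was also called higher. RelB pairs with p52 and p50 and carries the noncanonical response. Its level was 52.7, 47.2 and 52.5 CPM in wild type, against 89.3, 86.6 and 99.7 CPM in knockout. Every knockout library lay above every wild-type library. The rise was 1.81-fold, a log2 fold change of 0.85 ± 0.055 (SE, edgeR adjusted p = 3.55e-13), and over 16 alternative settings it ran from 0.64 to 0.90 with a call in each.

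The near-flat subunits depended on how libraries were scaled. Upper-quartile factors moved the median of all genes by -0.13 on the log2 scale, and log2(TPM + 1) moved it by -0.19. Nfkb1 was then called lower, at -0.15 (edgeR adjusted p = 4.80e-04) and -0.22 (limma-trend adjusted p = 5.91e-04), and Nfkb2 at -0.083 (edgeR adjusted p = 0.0342) and -0.16 (limma-trend adjusted p = 0.0016). In deposited TPM every subunit but Relb had a lower mean in knockout, as for Nfkb1 with 62.4, 64.0 and 65.1 TPM in wild type, against 55.6, 55.9 and 53.1 TPM in knockout, and only Rel overlapped between the groups among the 10 genes. A change of scaling factors moves nearly all genes alike, so measuring from the median of all tested genes in the same fit removes it by construction. It is therefore no test of whether the subunits were flat. Over the main fit and the 16 alternatives, changes so measured ran from -0.03 to 0.03 for Nfkb1 and 0.02 to 0.09 for Nfkb2. They ran from 0.05 to 0.13 for Rela and 0.01 to 0.11 for Rel. On the same footing the other members ran from 0.80 to 0.91 for Relb, 0.99 to 1.06 for Nfkbia, 2.02 to 2.10 for Nfkbib, 0.34 to 0.41 for Nfkbie and 0.91 to 1.05 for Bcl3. Tnfaip3 ran from -0.67 to -0.58.

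**Figure D2:**
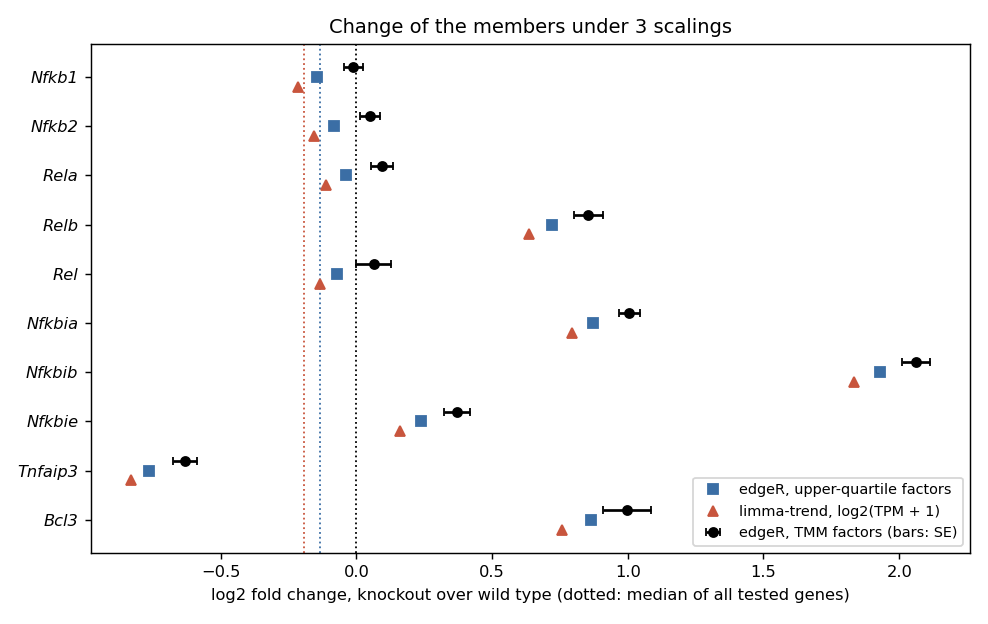
Log2 fold change of knockout over wild type (x axis) for the 10 genes under TMM factors (black, bars are SE), upper-quartile factors (blue) and log2(TPM + 1) (red); dotted lines mark the median of all tested genes under each. Nfkb1, Nfkb2, Rela and Rel stay near the matching dotted line, and the other 6 genes lie apart from it under all 3.

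Nfkbia (chromosome 12, 55489410 to 55492647) encodes IκBα, the inhibitor that is degraded and resynthesised fastest in the canonical response. It stood at 126, 125 and 130 CPM in wild type, against 241, 261 and 262 CPM in knockout. The groups lay far apart, and the spread within each was small beside the gap. The rise was 2.01-fold, a log2 fold change of 1.01 ± 0.038 (SE, edgeR adjusted p = 7.98e-19). Its promoter is shown because it is 1 of the 2 among these genes that match the strictest form of the κB motif. The 250 bases before the RefSeq transcript start (chr12:55492648-55492897, GRCm38.p6, minus strand) read as follows, 5′ to 3′, with the match to the κB consensus in capitals:
Nfkbia: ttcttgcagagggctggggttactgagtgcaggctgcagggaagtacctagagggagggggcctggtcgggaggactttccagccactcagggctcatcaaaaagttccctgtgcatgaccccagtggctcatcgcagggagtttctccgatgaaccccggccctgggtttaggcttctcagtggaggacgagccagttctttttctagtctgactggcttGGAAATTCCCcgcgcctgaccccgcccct

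Nfkbib (chromosome 7, 28758251 to 28767512) encodes IκBβ, which is resynthesised more slowly and binds RelA and c-Rel dimers. Its level was 20.8, 20.6 and 22.1 CPM in wild type, against 89.8, 86.5 and 89.5 CPM in knockout. The groups lay far apart, with the highest ratio between them among the members. The rise was 4.18-fold, a log2 fold change of 2.06 ± 0.052 (SE, edgeR adjusted p = 1.02e-22), higher than the change of 96.5% of tested genes. Nfkbib shares 42 exon positions with Sirt2 and 314 with Ccer2, both on the opposite strand. Ccer2 had 0 counts in every library. Sirt2, a deacetylase gene looked at because of the overlap, was itself 2.37-fold higher in knockout, and the ratio of Nfkbib to Sirt2 counts was 0.322 to 0.346 in wild-type libraries and 0.564 to 0.604 in knockout libraries. Its RefSeq start lies 868 bases inside the GENCODE gene model, and the promoter window there held no match to the κB consensus.

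Nfkbie (chromosome 17, 45555703 to 45563169), the gene of IκBε, had the smallest rise of the classical inhibitors. It was at 56.9, 53.6 and 56.4 CPM in wild type, against 74.7, 69.3 and 72.0 CPM in knockout. The groups did not overlap, and the log2 fold change was 0.37 ± 0.047 (SE, edgeR adjusted p = 5.75e-08), a 1.29-fold rise. It remained called against a 1.2-fold change (adjusted p = 0.00616) and on log2(TPM + 1), where it was 0.16 (limma-trend adjusted p = 0.00493).

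Bcl3 (chromosome 7, 19808462 to 19822770) encodes an atypical nuclear IκB protein that works with p50 and p52 homodimers on promoters. It had the fewest counts of the 10 genes, with 146, 179 and 172 counts in wild type, against 287, 298 and 302 in knockout. In CPM this was 8.15, 10.03 and 9.67 against 17.9, 18.6 and 19.0, with no overlap. The rise was 1.99-fold, a log2 fold change of 0.996 ± 0.088 (SE, edgeR adjusted p = 6.78e-11), whose error is the largest among the 10 genes.

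Tnfaip3 (chromosome 10, 19000910 to 19015657) encodes A20, a ubiquitin-editing enzyme that shuts off the signal upstream of the IκB kinases and is a classical target of the factor it restrains. It moved against the other inhibitors, from 161, 156 and 169 CPM in wild type to 112, 104 and 97.9 CPM in knockout. Every knockout library lay below every wild-type library. The gene was 1.55-fold higher in wild type, a log2 fold change of -0.63 ± 0.044 (SE, edgeR adjusted p = 6.72e-13), and it was called lower in all 16 alternatives, at -0.84 to -0.58. Its upstream RefSeq start has 2 matches to the κB consensus before it, shown with 10 bases on each side, matches in capitals, because they stand in the 1 gene that fell (GRCm38.p6, minus strand, 5′ to 3′):
Tnfaip3, chr10:19015526-19015535: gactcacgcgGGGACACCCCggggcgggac
Tnfaip3, chr10:19015413-19015422: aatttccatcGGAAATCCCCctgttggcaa

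Ratios of counts within a library do not depend on the scaling between libraries. Per Rela count there were 0.681, 0.754 and 0.736 Nfkbia counts in wild type, against 1.30, 1.44 and 1.34 in knockout. The ratio of Relb to Rela went from 0.284 to 0.298 in wild type to 0.478 to 0.510 in knockout, and that of Tnfaip3 to Rela from 0.874 to 0.958 in wild type to 0.501 to 0.601 in knockout. Between Nfkbia and Tnfaip3, which are both feedback inhibitors, the ratio rose. Nfkbia had 0.768 to 0.803 counts per Tnfaip3 count in wild type, against 2.16 to 2.68 in knockout. Its place below or above 1 depends on exon length, which is 1610 bases for Nfkbia and 7226 for Tnfaip3. In TPM, Nfkbia was above Tnfaip3 in both groups, at means of 336 against 95.5 in wild type and 584 against 53.4 in knockout. The ratios of Nfkb1, Nfkb2 and Rel to Rela overlapped between the groups.

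Levels of different genes were compared in TPM, which is per length. In wild type, Nfkb2 held 49.6%, 50.9% and 50.1% of the summed TPM of the 5 subunits, and in knockout 46.7%, 47.3% and 47.8%. Rela followed with 31.2% to 32.9% in wild type, against 30.8% to 31.5% in knockout. The share of Relb was 7.42%, 7.01% and 7.52% in wild type, against 11.98%, 11.7% and 12.4% in knockout. On this scale Relb passed Nfkb1 in the order. That order depends on the length used, all annotated exons of a gene merged, at 12061 bases for Nfkb1 and 3885 for Relb. In CPM, which is not per length, Nfkb1 stayed above Relb in knockout, at a mean of 179 against 91.9. Nfkb1 held 7.99% to 8.64% in wild type, against 7.11% to 7.86% in knockout, and Rel 1.79% to 2.22% over all libraries. In wild type the shares of Nfkb1 and Relb lay side by side without overlap, at 8.40% ± 0.353 and 7.32% ± 0.267 (SD, n = 3 each).

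Summed over Nfkbia, Nfkbib and Nfkbie, IκB transcripts stood at 454, 448 and 463 TPM in wild type, against 803, 839 and 824 TPM in knockout. The 5 subunits summed to 781, 741 and 761 TPM in wild type, against 714, 711 and 746 TPM in knockout. The ratio of the IκB sum to the subunit sum was thus 0.582, 0.605 and 0.608 in wild type, against 1.12, 1.18 and 1.10 in knockout. Its place below or above 1 depends on the merged exon lengths, such as 12061 bases for Nfkb1 and 1610 for Nfkbia. The rise of the ratio therefore does not show that IκB transcripts came to outnumber subunit transcripts. Most of the IκB sum was Nfkbia, with 336 ± 4.82 TPM in wild type and 584 ± 24.3 TPM in knockout (SD, n = 3 each). Nfkbib moved from below Nfkbie in wild type, at 41.6 ± 1.41 against 77.9 ± 2.36 TPM, to above it in knockout, at 151 ± 2.93 against 87.2 ± 3.53 TPM. These sums are of RNA, and protein was not measured. As the members were chosen with results known, no test is given for the sums.

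**Figure D3:**
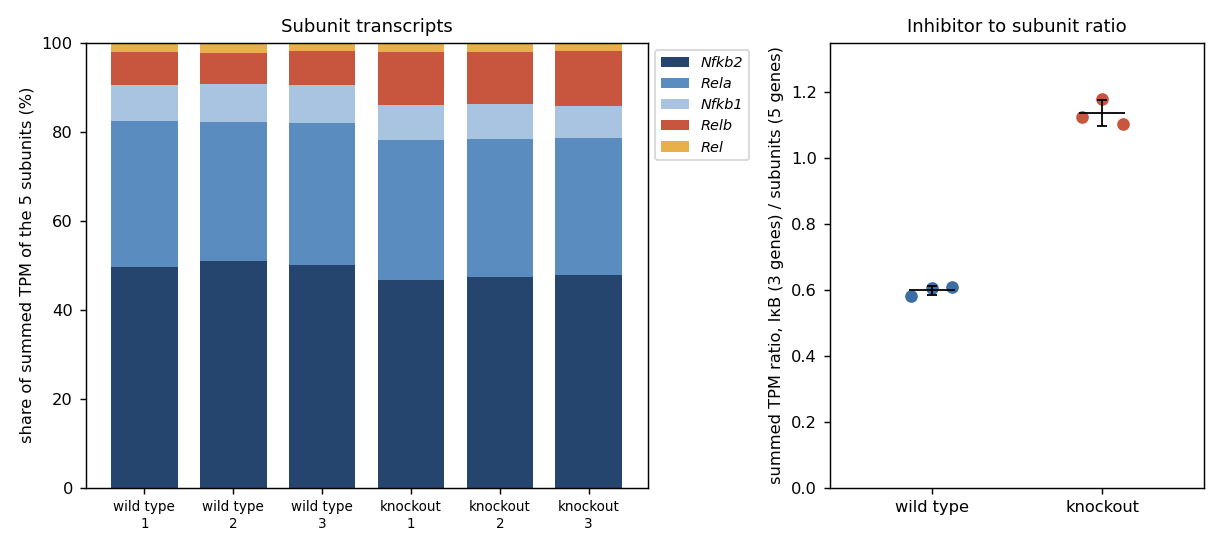
Left, share of each subunit in the summed TPM of the 5 subunits (y axis, percent) in every library; the Relb share is 7.01% to 7.52% in wild type, against 11.7% to 12.4% in knockout. Right, summed TPM of Nfkbia, Nfkbib and Nfkbie over summed TPM of the 5 subunits in each library (points, with mean ± SD as black bars). On the merged exon lengths used it is below 1 in wild type and above 1 in knockout.

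Promoter windows of RefSeq, which run from 250 bases before to 50 bases after each transcript start on GRCm38.p6, matched 8 of the 10 genes, all but Nfkb1 and Relb. They were searched on both strands for the κB consensus, 3 G, a purine, any base, A or T, 2 pyrimidines and 2 C, for its strict form of GGGA, any base and TTTCC, and for the core of GAAA, any 2 bases and GAAA of the interferon-stimulated response element. The consensus was found for 6 of the 8 genes and in 4.51% of all 32851 windows, or for 5.14% of the 27025 genes with a window. The strict form, which lies within the consensus, was found for Nfkbia and Nfkb2 and in 0.411% of all windows. The interferon element core was found for 0 of the 8 genes, beside 3.44% of all windows and 3.99% of the genes with a window. At so low a share, its absence from 8 genes says little about the members. A match is a run of letters and not a measured binding site.

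The other matches, credited to RefSeq on GRCm38.p6, are given with 10 bases on each side, 5′ to 3′ in the sense of the gene, matched letters in capitals, to show how alike they are among genes that rose (Nfkbie, Bcl3) and genes that were not called (Nfkb2, Rel). Those of Nfkb2 belong to 3 annotated starts, and the third site listed for it lies in the windows of 2 of them. Nfkb2 is on the plus strand, as is Nfkbie, and Rel and Bcl3 are on the minus strand. Where a match reads on the opposite strand, as in Nfkbia, the capitals show its complement in the sense of the gene. In Rel and at the first Nfkb2 site a further match overlaps, shifted by 1 base.
Nfkb2, chr19:46304698-46304707: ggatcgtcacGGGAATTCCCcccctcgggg
Nfkb2, chr19:46304726-46304735: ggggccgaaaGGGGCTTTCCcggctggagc
Nfkb2, chr19:46305705-46305714: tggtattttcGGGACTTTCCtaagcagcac
Nfkb2, chr19:46305459-46305468: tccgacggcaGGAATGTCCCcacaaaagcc
Rel, chr11:23771052-23771061: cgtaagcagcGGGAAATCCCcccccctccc
Nfkbie, chr17:45555594-45555603: gcagcaaacaGGGGGATTCCggaggggcgg
Bcl3, chr7:19822744-19822753: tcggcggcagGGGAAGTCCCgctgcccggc

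Among the 8 genes with a window, matches stood beside calls of each kind. With so few genes and short windows, a link between matches and direction was not tested. It was found for 3 genes that rose (Nfkbia, Nfkbie and Bcl3), for the 1 gene that fell (Tnfaip3) and for 2 genes that were not called (Nfkb2 and Rel). Both genes without it, Nfkbib and Rela, were called higher, Nfkbib with the largest change of the 10 and Rela with the smallest of those called. The call of Rela was not stable, being higher in 7 of the 16 alternatives and lower in 2. The matches nearest to a start lay at positions -29 to -20 in Nfkbia, -12 to -3 in Tnfaip3, -11 to -2 in Nfkb2 and 3 to 12 in Bcl3, counted from 1 at the first transcribed base with no position 0. In Rel the overlapping pair lay at -92 to -83 and -91 to -82, and in Nfkbie the match lay at -106 to -97.

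**Figure D4:**
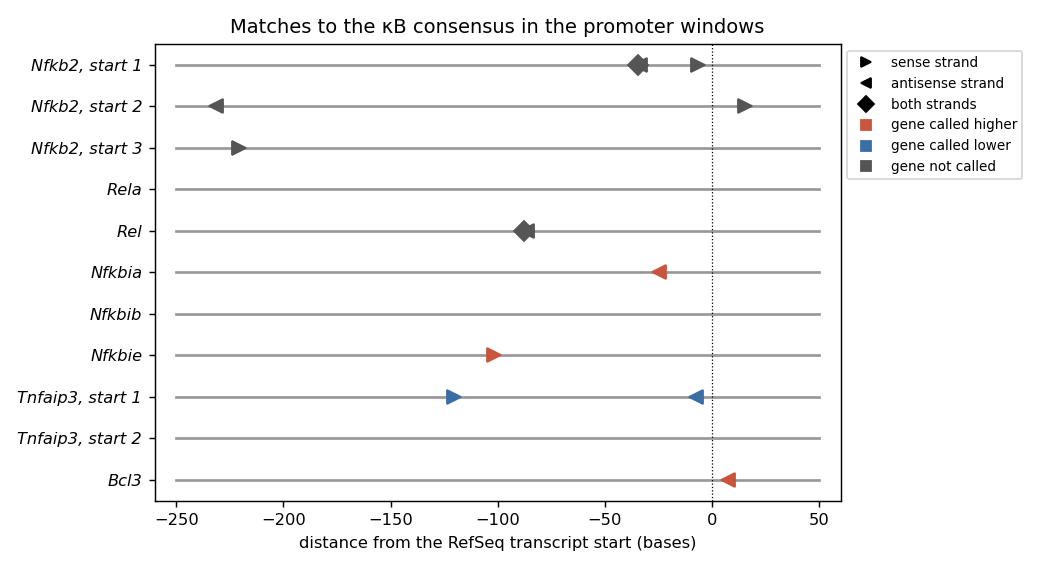
Position of matches to the κB consensus (x axis, bases from the RefSeq transcript start) in the 11 promoter windows of the 8 genes that have one, coloured by the gene's call in the main test, with the symbol giving the strand of the match. Rela, Nfkbib and the downstream start of Tnfaip3 hold no match, and genes that rose, fell or were not called all appear among those that do.

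The rest of the pathway was read from lists by role. Both other IκB genes measured were called higher. Nfkbiz, which encodes the nuclear inhibitor and coactivator IκBζ, went from 45.7 ± 2.68 to 95.6 ± 5.55 CPM (SD, n = 3 each), a log2 fold change of 1.06 ± 0.051 (SE, edgeR adjusted p = 2.20e-16). Nfkbid, the gene of the related protein IκBNS, had 57 to 86 counts in wild type, against 99 to 131 in knockout, and rose 1.82-fold. Together with the members, all 5 IκB genes and Bcl3 were called higher in knockout, beside 41.3% of all tested genes.

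At the level of the kinases, 6 of 10 tested genes were called higher, 3 lower and 1 was not called, with a median log2 fold change of 0.22. The called share of 90% is near the 82.3% of all tested genes. Ikbkg, the regulatory subunit NEMO of the IκB kinase complex, had 764 to 808 counts in wild type, against 1370 to 1427 in knockout, and rose 2.01-fold. It shares 418 exon positions with G6pdx on the opposite strand, whose counts went from 2038 to 2093 in wild type to 4745 to 4899 in knockout. Of the catalytic subunits, Ikbkb (IKKβ) was called lower at -0.38 ± 0.047 (SE, edgeR adjusted p = 5.23e-08). Chuk (IKKα), named after its value was seen, was called higher at 0.23 ± 0.042 (SE), a change little larger than the shift of the median on log2(TPM + 1). Map3k14, the gene of NIK, had 1543 to 1608 counts in wild type, against 666 to 743 in knockout, a log2 fold change of -1.001 ± 0.049 (SE, edgeR adjusted p = 1.85e-16). NIK is the kinase of the noncanonical pathway, in which RelB acts, and the 2 transcripts moved in opposite directions. Ikbke, an IKK-related kinase, rose 1.74-fold and the adaptor Tab2 1.58-fold, and the kinase Map3k7 (TAK1) fell by 0.57 on the log2 scale.

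Among 20 adaptors and ubiquitin ligases 11 were called higher, 7 lower and 2 were not called, with a median log2 fold change of 0.25, and the 90% called again stands beside 82.3% of all tested genes. The 3 subunits of the linear ubiquitin ligase, which builds the chains that recruit NEMO, were all higher. Rnf31 (HOIP) rose 3.73-fold, from 52.2 ± 1.88 to 195 ± 9.18 CPM (SD, n = 3 each), and shares 2.1% of its exon positions with Irf9, an interferon gene on the same strand with 204 to 240 counts in wild type, against 3018 to 3186 in knockout. Sharpin and Rbck1 (HOIL-1), named after their values were seen, were at log2 fold changes of 0.87 and 0.67. Irak1, a kinase below Toll-like and interleukin-1 receptors, rose 2.66-fold and Traf2 2.03-fold. Card10, a scaffold for Bcl10 and Malt1, fell by 1.36 on the log2 scale from 525 ± 6.69 CPM (SD, n = 3). Nod1, a sensor of bacterial cell wall, had a log2 fold change of -2.17 and Traf3, which helps mark NIK for degradation, of -0.81, both called lower.

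Of 14 tested negative regulators 7 were called higher and 7 lower, with a median log2 fold change of 0.02, an even division like that of all tested genes, of which 41.3% were called higher and 40.9% lower. Tnip2, which binds A20, rose 1.39-fold, while the deubiquitinase gene Otud7b (Cezanne) stood lower, by a log2 fold change of -0.85, as did the RNase gene Zc3h12a (Regnase-1), which degrades inflammatory mRNAs, at -0.97, both called. Pdlim2, a ubiquitin ligase that targets nuclear RelA, fell by 0.61 on the log2 scale. Nkiras1, a Ras-like protein that binds IκB, had 44 to 52 counts in wild type, against 158 to 162 in knockout, and rose 3.63-fold. It shares 718 exon positions, 13.1% of its exon length, with Ube2e1 and 105 with Rpl15, both on the opposite strand. Ube2e1 had 511 to 564 counts in wild type, against 1071 to 1110 in knockout, and Rpl15 782 to 884 against 427 to 507. The part of these overlaps in the rise of Nkiras1 was not tested. Commd1 rose 1.76-fold. The deubiquitinase gene Cyld, named after its value was seen, was at -0.33 and called lower.

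**Figure D5:**
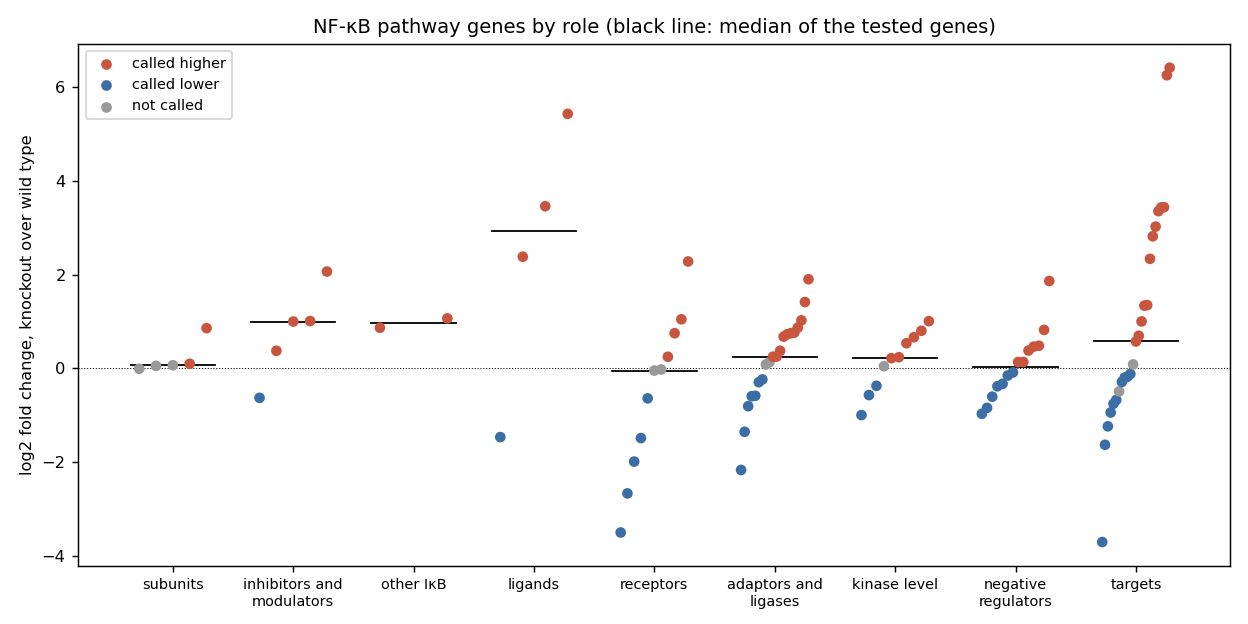
Log2 fold change of knockout over wild type (y axis) for each tested gene of the pathway, grouped by role (x axis), red where called higher, blue where called lower and grey where not called; black lines are medians. The inhibitors and modulators and the other IκB genes have medians near 1, the subunits 0.06, and receptors, adaptors and targets spread to both sides of 0.

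Of 11 tested receptor genes 4 were called higher, 5 lower and 2 were not called, and the 81.8% called is close to the 82.3% of all tested genes. Tlr3, the endosomal receptor of double-stranded RNA, rose 4.85-fold, from 29.0 ± 2.07 to 141 ± 3.79 CPM (SD, n = 3 each). Tlr2 rose 2.06-fold and Ltbr, the lymphotoxin beta receptor of the noncanonical pathway, 1.68-fold. Il1r1, the interleukin-1 receptor, had 405 to 427 counts in wild type, against 30 to 34 in knockout, a log2 fold change of -3.51 ± 0.111 (SE, edgeR adjusted p = 1.39e-20). Tnfrsf11a (RANK) and Cd40, both low in these cells, were called lower at log2 fold changes of -2.67 and -1.995. The tumour necrosis factor receptor genes Tnfrsf1a and Tnfrsf1b, named after their values were seen, were at 0.24, called higher, and -0.03, not called. Both depend on the scaling, which moved the median of all genes by -0.19 on log2(TPM + 1). In deposited TPM, Tnfrsf1a had means of 115 in wild type and 118 in knockout, and Tnfrsf1b 109 and 92.9.

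Few ligands were expressed, and 4 of 10 could be tested. Tnf, the best known activator of the pathway, had 0, 2 and 0 counts in wild type, against 3, 0 and 6 in knockout. Il1a rose 11.0-fold, from 39, 55 and 52 counts to 500, 512 and 427. Tnfsf10 (TRAIL) had 2, 2 and 3 counts in wild type, against 101, 98 and 86 in knockout, and Lta 5, 6 and 2 against 21, 23 and 18. Il1b, named as the only ligand called lower, was at a log2 fold change of -1.47 ± 0.41 (SE, edgeR adjusted p = 0.00214) with a mean of 0.765 CPM in wild type.

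Of 25 tested targets, 13 were called higher, 10 lower and 2 were not called, with a median log2 fold change of 0.57, and 92% were called beside 82.3% of all genes. Against a 1.2-fold change 6 were called lower. Saa3, an acute phase gene, had 6, 3 and 3 counts in wild type, against 245, 281 and 420 in knockout. Il6 had 0, 0 and 1 counts in wild type, against 26, 27 and 42 in knockout, and the pooled ratio was 106 (95% interval 18.6 to 4238, counting error only). Ccl2 had 3 or 4 counts in wild type, against 25, 37 and 48 in knockout. For these 3 genes knockout replicate 3 held the highest value, and all were called higher without it. In the other direction, Ccl20 had 89, 92 and 102 counts in wild type, against 5, 5 and 9 in knockout. Ier3, an early response gene, was at 346 ± 6.12 CPM in wild type, against 111 ± 4.26 CPM in knockout (SD, n = 3 each), and Myc fell by 1.24 on the log2 scale.

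The genes with the most similar course over the 6 libraries were taken by Euclidean distance between centred log2 CPM vectors among 13021 tested genes. With 2 groups this measure weighs mainly the size of the group difference. For Nfkbib they were Trim26, Ttc39c and Vps8, at distances of 0.059, 0.070 and 0.074 and log2 fold changes of 2.05, 2.03 and 2.08. For Tnfaip3 they were Sema4b, Castor2 and Inpp5k, at distances of 0.047, 0.059 and 0.082 and log2 fold changes of -0.61, -0.64 and -0.58.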

How the data were processed

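RNA was sequenced in 6 libraries, 3 per group. For 55487 genes the authors deposited raw counts, which are whole numbers, together with TPM. GRCm38, featureCounts 2.0.1 and STAR 2.7.8a are named in the submitters' processing notes, without settings, so annotation release, strand setting and treatment of multi-mapping reads remain unknown here. The 12 files of single libraries held the same values as the tables of the whole series. Identifiers were matched to GENCODE M21 (GRCm38), with an entry for 55227 of them, and symbols, positions and exon overlaps come from it. Shares within the subunits were the same from deposited TPM and from CPM over GENCODE exon length, with all exons of a gene merged. Both scales thus divide the same counts by the same length, and their agreement is no check of that length.

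Genes were filtered with edgeR's filterByExpr, which left 13022, and tested with the quasi-likelihood F test (robust, TMM factors, two-sided, Benjamini-Hochberg over all tested genes, threshold 0.05). Standard errors were derived from the fitted log2 fold change and its F statistic. CPM are counts over the TMM-adjusted library size, and a fold change sets knockout over wild type where not said otherwise. The procedure was tested on simulated counts in which few genes changed, with as many rises as falls. In these data 82.3% of tested genes were called, so the simulation does not test the scaling between libraries. Pooled intervals cover counting error only.

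The members and lists were chosen with earlier results of these data known. The named list genes are up to 3 called genes with the largest change in each direction whose higher group averages 1 CPM or more, and others are said to have been named after their values were seen or stand as the partner of one. Alternatives were a replicate block, factors by RLE or by upper quartile, a test against a 1.2-fold change, limma-voom, DESeq2, a filter of 1 CPM reached by 3 libraries, no filter at all, each library left out in turn, and limma-trend with TPM at a pseudocount of 1 or 0.1 before taking log2. The work used edgeR 4.0.16, DESeq2 1.42.0 and limma 3.58.1 in R 4.3.3, with Python 3.11.15 for summaries.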

Additional observations from a re-analysis of the deposited data

How the results depend on the processing

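Relb, Nfkbia, Nfkbib, Nfkbie and Bcl3 were called higher and Tnfaip3 lower in each of 16 alternatives. Rela was called higher in 7 of them and lower in 2. The number of members called lower, 1 in the main test, was 3 with upper-quartile factors and 4 on log2(TPM + 1) and on log2(TPM + 0.1). Signs turned with upper-quartile factors, log2(TPM + 1) and log2(TPM + 0.1) for Nfkb2 (-0.083, -0.16 and -0.16), Rela (-0.039, -0.11 and -0.11) and Rel (-0.070, -0.13 and -0.14). Nfkb1, at -0.01, was at 0.0061 with no filter and ran from -0.035 to 0.0047 when 1 library was left out. The scaling itself moved the median of all genes by -0.13 and -0.19 in the first 2 of these settings, and by -0.21 in the third. With the filter of 1 CPM in 3 libraries 0 ligands were called lower, because Il1b was no longer tested. Against a 1.2-fold change 6 targets were called lower in place of 10. All 35 named list genes kept their direction and call in every alternative run. They were picked for the largest changes in the main test, so this says little about the other genes of the lists. The replicate block called 10798 genes against 10711 and changed no member's call. The pairing by number was not borne out, since same-numbered libraries correlated in their deviations from the group means at -0.0074, 0.042 and 0.013. Depth limits Bcl3 among the members, and Tnf, Il6, Lta and Tnfsf10 among the rest.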
